A study of Drosophila melanogaster with 12 samples.

Results

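The comparison described here sets immature oocytes of wisp mutant females against those of wild type females of Drosophila melanogaster. It uses 4 of the 12 RNA libraries of the study, 2 of each genotype, and all 5421 transcript records of the deposited table after removal of 1 exact duplicate. The mutant carries the wispKG5287 allele, which the labels call a knockout of wispy (wisp) and describe as a null. The control strain was w1118. Immature oocytes were taken at oogenesis stages 9 to 10 by hand dissection from females aged 3 to 4 days, and the labels call libraries 1 and 2 of each genotype biological replicates. The 8 other libraries cover mature oocytes at stage 14 and unfertilized activated eggs aged 0 to 1 h, again 2 per genotype. A single allele was set against a single control strain, so an effect of the allele and an effect of strain background cannot be told apart. How many females contributed to a library, and how the oocyte was separated from its nurse and follicle cells, are not given in the sources used here.

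Wispy is a cytoplasmic poly(A) polymerase of the female germline. It lengthens the poly(A) tails of maternal mRNAs, which the nurse cells make and load into the oocyte, and the tails in turn affect how well those mRNAs are translated during oocyte maturation and after egg activation. Mutant females lay eggs that do not develop. At the stages sampled here the egg chamber takes up yolk and the nurse cells still transcribe heavily, while the oocyte nucleus rests in meiotic prophase.

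Values are the authors' normalised read counts, and the table lists only records that reach 100 in each of the 12 libraries. Differences are given on the log2(value + 1) scale as mutant minus wild type. The pair difference is that between same-numbered libraries, wisp 1 minus WT 1 and wisp 2 minus WT 2. Across all records the median pair difference was 0.0052 for pair 1 and 0.031 for pair 2. All 10 germline markers on the marker list had a record. None of the 13 follicle cell and eggshell markers, 8 muscle markers and 9 fat body, hemocyte and gut markers on it had one. This says little about these libraries because a record had to reach the floor in mature oocytes and eggs too. Other genes of those cell types had records: 5 on the follicle cell list, 2 on the muscle list and 3 on the fat body, hemocyte and gut list.

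Before any gene is considered, the replicates of immature oocytes stood apart. The correlation of log2 values across genes was 0.858 between wisp 1 and wisp 2 and 0.828 between WT 1 and WT 2, while it was 0.942 between wisp 1 and WT 1 and 0.977 between wisp 2 and WT 2. WT 1 was closer to the WT mature oocyte libraries, with correlations of 0.973 and 0.967, than to its own replicate. Between replicates of a genotype, 931 records in wisp and 1117 in WT differed at least 2-fold. At the median the difference between genotypes was smaller than that between replicates: the median absolute difference was 0.29 in pair 1 and 0.19 in pair 2, against 0.35 between the wisp replicates and 0.47 between the WT replicates. The leading genes are therefore given in all 4 libraries, and gene groups by the median of each pair. Called means an adjusted p under 0.05 (limma with Benjamini-Hochberg adjustment over all 5421 records), either in a fit of group means without a block or in a fit with a replicate block within each stage, which tests the pair differences. The labels do not say that a replicate number marks a shared batch, and p-values measure only the spread between these libraries.

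The targeted gene comes first. The wisp gene, at X:11893943-11899920 on the plus strand of dm6, had values of 718 and 249 in wisp libraries 1 and 2, against 10195 and 3623 in WT libraries 1 and 2. Every wisp library lay far below every WT library, yet within each genotype library 1 exceeded library 2. The pair differences were -3.83 and -3.86, so the mutant stood 14.2-fold and 14.6-fold below its partner. The difference of -3.84 (SE 0.67) had an adjusted p of 0.0676 without a block and 5.17e-11 with it (limma). In bulk RNA, here and below, fewer cells of a type and less RNA per cell cannot be told apart.

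Without a block, 6 records were called, or 0.111% of those tested, 4 lower (0.0738%) and 2 higher (0.0369%) in the mutant, and 373 had an unadjusted p under 0.05. In all 6 the genotypes did not overlap. Among the lower ones, Ubi-p5E, one of the polyubiquitin genes (X:6276876-6279647, minus strand), had 3689 and 3679.6 in wisp libraries, against 14225 and 17130.5 in WT libraries. Its difference was -2.08 (SE 0.17, adjusted p 0.00348, limma). Polyubiquitin genes share near-identical repeats, so how reads were divided between them is uncertain.

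The cytochrome P450 gene Cyp6a19 (2R:14877786-14879752, plus strand) had 1589.7 and 1462 in wisp libraries, against 6157 and 5774 in WT libraries. WT exceeded wisp 3.87-fold in pair 1 and 3.95-fold in pair 2, with no overlap between groups. The pair differences were -1.95 and -1.98, and the adjusted p was 0.00348 (limma). Its exons overlap those of Cyp6a9 on the opposite strand over 20.8% of their length. The library kit does not mark strand, so reads of the overlap cannot be told apart. The photolyase gene phr (2R:7825289-7827319, plus strand), whose enzyme repairs ultraviolet-induced pyrimidine dimers in DNA using light, had 369.8 and 335 in wisp libraries, against 1079 and 1760.1 in WT libraries. Both WT values exceed both wisp values, and WT 2 stood furthest out; the difference was -1.97 (SE 0.24, adjusted p 0.0348, limma). CG15047, a gene known by its annotation number (X:18528683-18529593, plus strand), had 117 and 105 in wisp libraries, against 240.2 and 292 in WT libraries. The wisp values lie just above the floor of 100, and the difference was -1.25 (SE 0.15, adjusted p 0.0347, limma).

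Of the higher pair, Naglu, listed as CG13397 (2L:8408888-8411868, minus strand), encodes the lysosomal enzyme alpha-N-acetylglucosaminidase, which degrades heparan sulfate. It had 3232 and 4295 in wisp libraries, against 859 and 1109 in WT libraries. The mutant was 3.76-fold higher in pair 1 and 3.87-fold in pair 2, and the groups did not overlap (difference 1.93, SE 0.24, adjusted p 0.0348, limma). CG31683 (2L:20447734-20449964, minus strand) had 1669 and 1609 in wisp libraries, against 718 and 701 in WT libraries. Replicates nearly coincide in both genotypes, and the difference was 1.21 (SE 0.15, adjusted p 0.0353, limma). With a library left out, which leaves 1 library in an arm, 2 of the 6 remained called without wisp 1, 0 without wisp 2, 4 without WT 1 and 0 without WT 2 (limma, with 238, 568, 400 and 700 records at an unadjusted p under 0.05). The sizes moved less than the calls: the difference then lay between -2.22 and -1.95 for Ubi-p5E, -2.03 and -1.91 for Cyp6a19, -2.32 and -1.61 for phr, -1.39 and -1.11 for CG15047, 1.73 and 2.14 for Naglu (CG13397), and 1.18 and 1.23 for CG31683.

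With the replicate block 1129 of the 5421 records had an unadjusted p under 0.05 (limma), and 267 were called, or 4.93% of those tested. The mutant was lower for 158 (2.91%) and higher for 109 (2.01%), and all 6 above were among them. All 267 had the same sign in both pairs, against 60.4% of all records. A fit that tests the pair differences favours records whose pairs agree. The groups did not overlap for 90 of the lower and 101 of the higher ones; over all records, they did not overlap with the mutant lower for 7.78% and with the mutant higher for 15.9%. For the rest the pair differences agree in sign while the groups overlap. All calls but the 6 above exist only in the paired comparison, and these include most of those without overlap. The pairs did not contribute equally. In pair 1, 238 records were at least 2-fold lower and 31 at least 2-fold higher in the mutant, while pair 2 had 32 and 41. Only 20 records were at least 2-fold lower in both pairs and 20 at least 2-fold higher, and all 40 were called. A fit on 1 pair has 1 immature library per genotype. Its spread comes only from later stages, so no gene is called from it. Its calls are only counted among the processing alternatives.

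**Figure D1:**
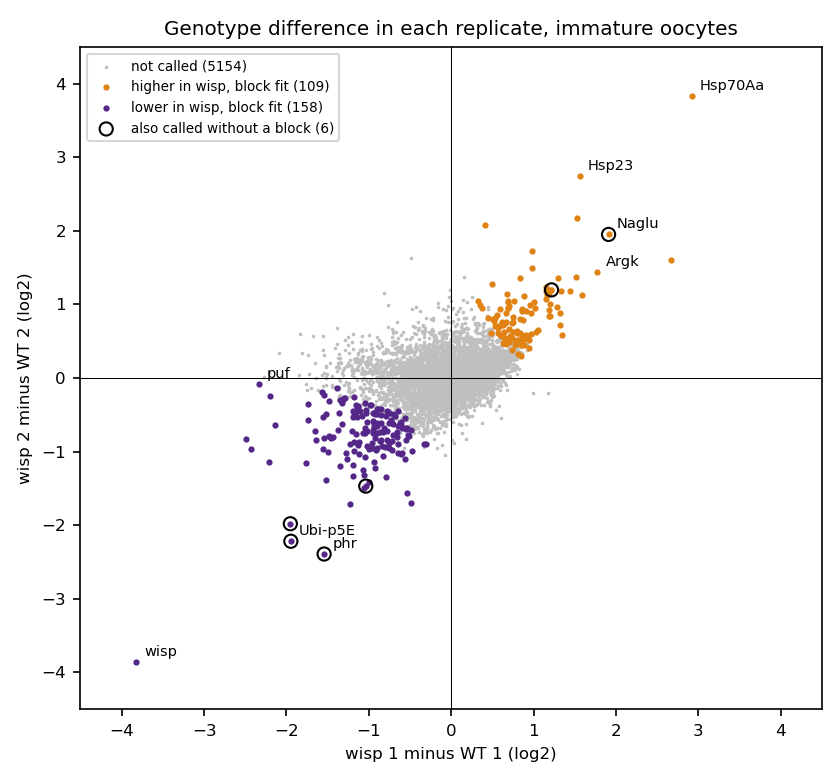
Each point is a record, with the log2 difference wisp 1 minus WT 1 on the x axis and wisp 2 minus WT 2 on the y axis, orange where called higher in the mutant with the replicate block (109), purple where called lower (158) and ringed where called without a block (6). The cloud is stretched along pair 1 to the left, Hsp70Aa and wisp stand at opposite corners, and puf is called although its pair 2 difference is -0.08.

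The plot of pair differences shows how the 2 pairs relate. Across records the pair differences correlated at 0.393, a description over genes that share libraries. At the edge of the calls, 5 of the 158 lower records had a pair difference smaller than 0.25 in size. They were shot, puf, cp309, CG13784 and mus201, named after their values were seen. Of these, puf encodes a ubiquitin-specific protease. Its values were 751 and 3709 in wisp libraries, against 3799 and 3918 in WT libraries. Here wisp 1 alone stood apart.

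Heat shock genes gave the largest increases. Hsp70Aa encodes an inducible chaperone that refolds damaged proteins (3R:11954163-11956544, minus strand). It had 6477 and 4062 in wisp libraries, against 857 and 285 in WT libraries. Both wisp values far exceeded both WT values, and the pair differences were 2.92 and 3.83. The difference of 3.37 (SE 0.49) had an adjusted p of 0.0513 without a block and 6.62e-09 with it (limma). The Hsp70 genes are near-identical copies, so the value may stand for several of them. Hsp23, a small heat shock protein (3L:9381882-9382765, plus strand), had 3151 and 5170.3 in wisp libraries, against 1069.9 and 772 in WT libraries. The groups did not overlap, and the pair differences were 1.56 and 2.74 (adjusted p 0.0733 without a block and 7.43e-05 with it, limma).

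Of the 12 heat shock genes and cognates with a record, these were the ones called, 2 (16.7%) higher and 0 lower with the block, against 2.01% and 2.91% of all records. The median pair differences of the list were 0.42 and 0.47, and 11 of the 12 members were higher in the mutant in both pairs, against 32.6% of all records. Hsp83, the Hsp90 chaperone, had 98486 and 66585 in wisp libraries, against 82683 and 47139 in WT libraries, and was not called. The constitutive Hsc70-4 had 82977 and 73029 in wisp libraries, against 52187 and 50939 in WT libraries, and was not called either (both chosen after their values were seen). The gene l(2)tid, a mitochondrial DnaJ co-chaperone now named CG5504, lies outside the list and rose with the block, with 1983 and 2776 in wisp libraries, against 727 and 1227 in WT libraries. Its pair differences were 1.45 and 1.18 (adjusted p 0.000217 with the block, limma).

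Genes of detoxification moved in both directions. Of 16 glutathione transferases, 3 (18.8%) rose with the block and 0 fell, against 2.01% and 2.91% of all records, while the medians of the list were 0.31 and -0.027 in the pairs. GstS1, the sigma class transferase, had 1753 and 1695 in wisp libraries, against 869 and 879.6 in WT libraries. Replicates nearly coincided in both genotypes, and the mutant was 2.02-fold and 1.93-fold higher (adjusted p 0.0539 without a block and 0.00159 with it, limma). GstE8 had 409.7 and 413 in wisp libraries, against 225 and 215 in WT libraries, also without overlap. GstE11 was the smallest of the 3, with pair differences of 0.74 and 0.55.

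Of 15 P450, epoxide hydrolase and UDP-glycosyltransferase genes, 3 (20%) rose and 2 (13.3%) fell with the block, beside the same 2.01% and 2.91%. The median pair differences of the list were 0.043 and 0.15. The juvenile hormone epoxide hydrolase gene Jheh2 had 2462 and 2791 in wisp libraries, against 1081 and 1472 in WT libraries. Its neighbour Jheh1, named after its values were seen, had pair differences of 1.00 and 1.04. Annotated antisense RNA covers 91.6% of the Jheh2 exons, and the reads of both strands were not separated. The UDP-glycosyltransferase gene Ugt36E1, listed as CG17322, fell, with 275 and 375 in wisp libraries, against 599.7 and 766 in WT libraries. With Cyp6a19 it makes up the lower members, and both differed without overlap. Fdh, the formaldehyde dehydrogenase that clears formaldehyde through glutathione, is on no list and rose with the block. It had 3262 and 4455 in wisp libraries, against 1455 and 2033 in WT libraries, with pair differences of 1.16 and 1.13 (adjusted p 0.000748 with the block, limma).

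Several other genes with leading increases act in metabolism, signalling and chromatin. Argk, the arginine kinase that buffers ATP through phosphoarginine (3L:9048781-9066027, minus strand), had 5521 and 5711 in wisp libraries, against 1617 and 2104 in WT libraries. The groups were far apart, with pair differences of 1.77 and 1.44 (adjusted p 0.059 without a block and 0.000151 with it, limma). Argk is highly expressed in muscle; the other member of the muscle list with a record, Tm1, had pair differences of -0.25 and -0.26 and was not called, and the summed value of both was 6854 and 6020 in wisp libraries, against 3205 and 2473 in WT libraries. Sp7, a secreted serine protease of the melanization cascade, had 619 and 809.6 in wisp libraries, against 252 and 313 in WT libraries. It is on the list of fat body, hemocyte and gut genes, of which 3 had a record. Of these 1 (33.3%) rose with the block, against 2.01% of all records, and the others, Mal-A5 and Mal-B2, were not called. The part of such cells in these values was not tested.

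The gene simj encodes the p66 subunit of the nucleosome remodelling complex NuRD. It had 1749 and 814 in wisp libraries, against 608 and 180.1 in WT libraries. Replicate 1 exceeded replicate 2 in both genotypes, and the pair differences were 1.52 and 2.17 (adjusted p 0.463 without a block and 3.28e-06 with it, limma). Sdr, a secreted decoy of the insulin receptor, had 230.4 and 343 in wisp libraries, against 100.4 and 153 in WT libraries. WT 1 lay at the floor of the table, and the pair differences were 1.19 and 1.16. The junction scaffold gene smash, listed as CG43427, had 1038 and 1112 in wisp libraries, against 779.8 and 263 in WT libraries, a difference carried by WT 2.

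**Figure D2:**
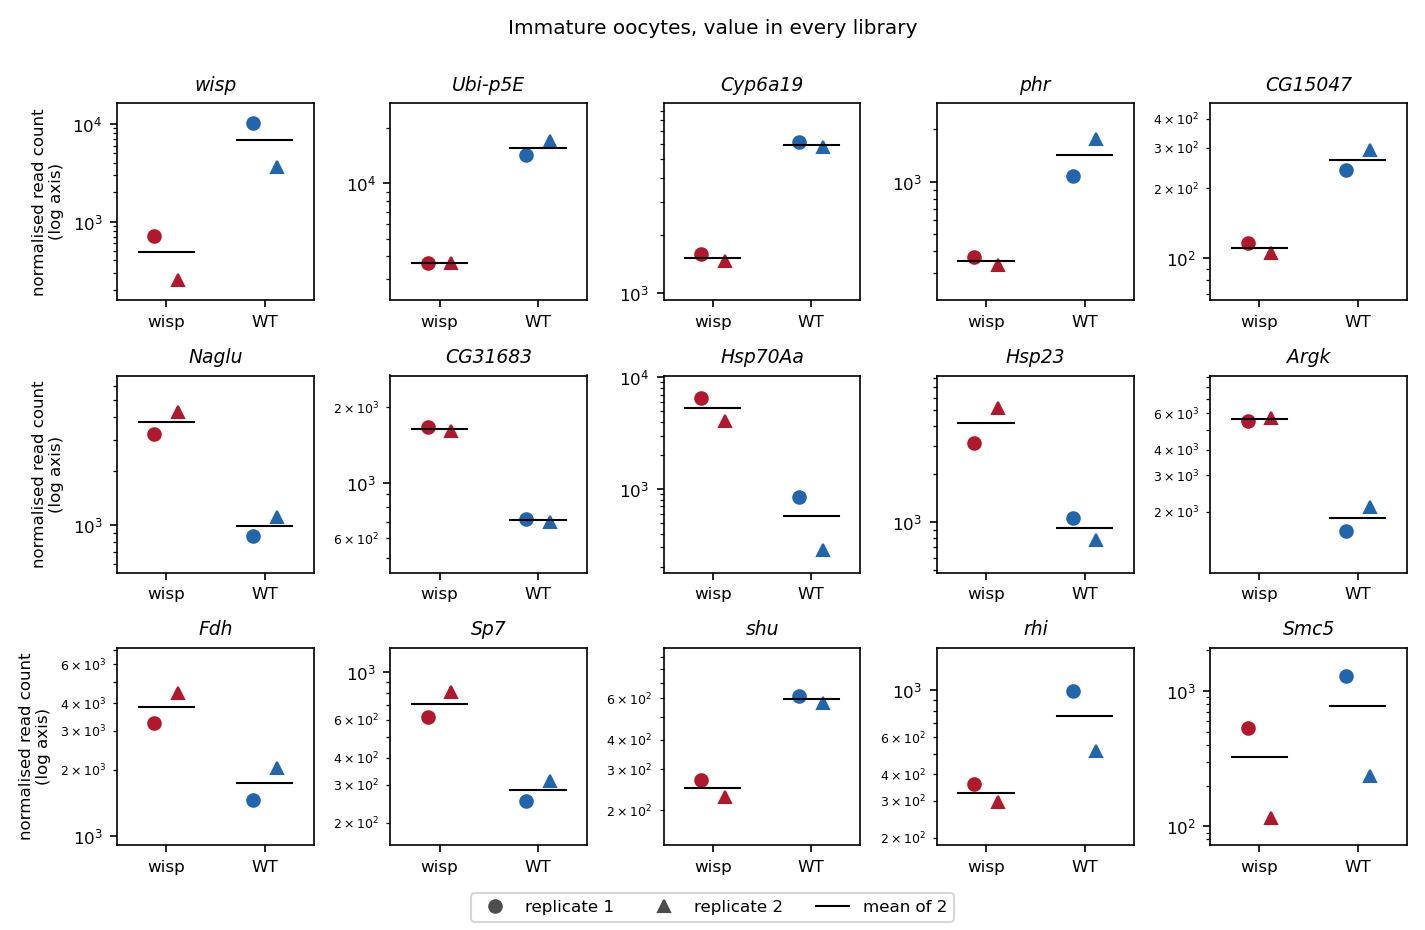
Normalised read count (log axis) of 15 genes in the 4 immature oocyte libraries, wisp in red left of WT in blue, circles for replicate 1, triangles for replicate 2 and a line for the mean of 2. In every panel but that of Smc5 the genotypes do not overlap; Hsp70Aa lies at 6477 and 4062 in wisp and at 857 and 285 in WT.

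Genes of DNA replication and repair were mostly lower in the mutant. Of 77 genes of replication, repair and condensin, 8 (10.4%) were called lower with the block and 0 higher, against 2.91% and 2.01% of all records. With the block 23 had an unadjusted p under 0.05 (limma), against 1129 of all 5421 records. The median pair differences were -0.32 and -0.17, and 47 members (61.0%) were lower in both pairs, against 27.8% of all records. RfC38, a subunit of the clamp loader, had 508 and 531 in wisp libraries, against 776 and 1089 in WT libraries. PolE2, a subunit of DNA polymerase epsilon listed as Pole2, had 407 and 536 in wisp libraries, against 729 and 1019.6 in WT libraries. Both differed without overlap, by -0.82 and -0.88 (adjusted p 0.00484 and 0.00498 with the block, limma). RfC38 shares 25.2% of its exon length with Nup160 on the opposite strand.

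Smc5, a subunit of the SMC5/6 complex that acts in DNA repair, had 535 and 116 in wisp libraries, against 1303 and 236 in WT libraries. Its wisp 1 value exceeds its WT 2 value, so the groups overlap and the call of -1.15 exists only in the paired comparison (adjusted p 0.929 without a block and 0.000243 with it, limma). The other members called, named after their values were seen, were DNApol-epsilon, the catalytic subunit of that polymerase; lat and Orc2, subunits of the origin recognition complex; mus205, the catalytic subunit of the translesion polymerase zeta; and mus201, a nuclease of nucleotide excision repair. Their differences lay between -0.61 and -0.81. Without the length trend described below, 6 of the 8 remained called, DNApol-epsilon and mus205 being the exceptions. At the median the 77 genes differed less in pair 2 than in pair 1.

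Genes of related function fell as well. Ts, thymidylate synthase, which makes the thymidine nucleotide for DNA synthesis, had 259 and 198 in wisp libraries, against 542 and 562 in WT libraries. The groups did not overlap, and the difference was -1.28 (adjusted p 0.0513 without a block and 7.43e-05 with it, limma). Its exons share 10.6% of their length with Rbp9 on the opposite strand. Claspin, a mediator of the replication checkpoint, had 743 and 261 in wisp libraries, against 2191 and 507 in WT libraries, with overlapping groups. Of 3 records of replication-dependent histones, 1 (33.3%) fell with the block, against 2.91% of all records. It was His2B:CG33868, with 160.2 and 152 in wisp libraries, against 279 and 388 in WT libraries. The histone genes are a tandem array of near-identical copies, so the value may stand for several of them.

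Of 32 kinesin, dynein and adaptor genes, 3 (9.38%) fell with the block and 0 rose, against 2.91% and 2.01% of all records. Klp61F, the bipolar kinesin-5 of the spindle, had 742 and 838 in wisp libraries, against 1528 and 1338 in WT libraries, with no overlap. The CENP-E kinesin genes cmet and cana lie next to each other on 2L. For cmet the values were 879.8 and 385 in wisp libraries, against 2761 and 637 in WT libraries, and for cana 2501 and 726, against 5125 and 1013. The groups overlap in both genes, and in cana the replicates lay further apart than the genotypes. The gene sti, which encodes citron kinase of the cytokinetic ring, fell with 546 and 625 in wisp libraries, against 1855 and 1390.4 in WT libraries (adjusted p 0.18 without a block and 0.00013 with it, limma).

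Of 28 ring canal and nurse cell actin genes, 2 (7.14%) fell with the block, against 2.91% of all records: zip, the heavy chain of nonmuscle myosin, and kel, the Kelch protein of ring canals. For kel the values were 791 and 631 in wisp libraries, against 1519.8 and 877 in WT libraries. The actin-bundling gene Fim lies outside the list and had the largest decrease after the genes already named. Its values were 491 and 310.0 in wisp libraries, against 2661 and 605 in WT libraries. WT 1 carried most of the gap, with pair differences of -2.44 and -0.96 (adjusted p 0.705 without a block and 0.000184 with it, limma).

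The piRNA pathway silences transposons in the germline through small RNAs bound by Piwi proteins. Of its 29 genes with a record, 4 (13.8%) fell with the block and 0 rose, against 2.91% and 2.01% of all records, and the medians of the list were -0.37 and -0.039. The gene shu, a co-chaperone that helps load piRNAs, had 269 and 227 in wisp libraries, against 615 and 572 in WT libraries. The replicates were tight and the groups far apart, with pair differences of -1.19 and -1.33 (adjusted p 0.0513 without a block and 6.61e-05 with it, limma). For rhi, whose HP1-like protein marks dual-strand piRNA clusters, the values were 359 and 295 in wisp libraries, against 993 and 517 in WT libraries. SoYb, a Tudor domain factor, had 675 and 280 in wisp libraries, against 1306 and 390 in WT libraries. These groups overlap, the adjusted p was 0.946 without a block and 0.0164 with it (limma), and the difference of -0.71 ranged from -1.58 to 0.16 when single libraries were left out. The other member called was arx, a factor of Piwi-guided silencing named after its values were seen, with a difference of -0.70. Removing the length trend left all 4 called. In pair 2, rhi (-0.80) and SoYb (-0.48) differed less than in pair 1 (-1.47 and -0.95), unlike shu.

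The gene moon went the other way. It is listed as CG12721, lies at X:12072008-12072818 on the minus strand and encodes the TFIIA-like partner through which Rhino-bound clusters are transcribed. Its values were 484 and 233 in wisp libraries, against 160.4 and 105 in WT libraries, and the pair differences were 1.59 and 1.13 (adjusted p 3.36e-05 with the block, limma). The germline Argonautes piwi and aub were not called: piwi had 2608 and 2051 in wisp libraries, against 3438 and 1851 in WT libraries, and aub 2233 and 2543, against 2145 and 2515 (both chosen after their values were seen).

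The next lists hold the machinery of poly(A) tails, the process in which Wispy acts. Of 18 genes of nuclear and cytoplasmic polyadenylation, 2 (11.1%) were called lower with the block, against 2.91% of all records. They were wisp and orb2, a CPEB-like RNA-binding protein. For orb2 the values were 358 and 190.1 in wisp libraries, against 546 and 297 in WT libraries. The call was lost when the length trend was removed (difference -0.25). Of 30 genes of deadenylation and decay 1 (3.33%) was called higher, against 2.01% of all records. It was Rrp4, an exosome subunit, with 1002 and 1151 in wisp libraries, against 481 and 731 in WT libraries. No repressor of maternal translation among 20 was called with the block, against 4.93% of all records. An unadjusted p under 0.05 was reached by 4 (limma with the block), against 1129 of all 5421 records.

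Maternal genes that pattern the egg and run its cell cycle were rarely called with the block, but so were all records (4.93%). None of the 30 axis and germ plasm genes and none of the 49 meiosis and cell cycle regulators was called with the block. At an unadjusted p under 0.05 were 3 and 11 (limma), against 1129 of all 5421 records. Of 19 calcium and egg activation genes, wisp was the 1 called (5.26%), against 2.91% of all records called lower. The posterior determinant osk had 22596 and 24274 in wisp libraries, against 17326 and 17318 in WT libraries, higher in the mutant without overlap but not called. An annotated noncoding RNA, lncRNA:osk, covers 78.5% of the osk exons on the same strand, so its reads cannot be told apart from those of the mRNA. The mitotic cyclin gene CycB had 42646 and 41637, against 38836 and 33308. For yl, the yolk protein receptor, the values were 40743 and 86519 in wisp libraries, against 37398 and 68386 in WT libraries, so the replicates differed more than the genotypes. Among 21 germline and nurse cell markers, 1 (4.76%) fell and 1 (4.76%) rose with the block, against 2.91% and 2.01% of all records. The lower was kel. The higher was bam, a germline differentiation factor, with 628 and 381 in wisp libraries, against 326 and 267 in WT libraries. Of 12 dorsal group and Toll genes 1 (8.33%) was called lower, against 2.91% of all records. It was spz, the precursor of the Toll ligand, with 486 and 154 in wisp libraries, against 993 and 208 in WT libraries.

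Ribosomal protein and respiratory chain genes were mostly higher in the mutant, and few single genes were called. Of 82 cytoplasmic ribosomal protein genes, 0 were called with the block, against 4.93% of all records. With the block 52 had an unadjusted p under 0.05 (limma), against 1129 of all 5421 records. In both pairs 80 (97.6%) were higher, against 32.6% of all records. With the length trend removed 3 of the 82 were called higher with the block, against 149 of all 5399 records in that fit. The median pair differences were 0.68 and 0.26. The gene sta, which encodes a small subunit protein, had 42628 and 47859 in wisp libraries, against 24701 and 36584 in WT libraries. The groups did not overlap, and WT 1 lay well below WT 2. Of 69 nuclear genes of oxidative phosphorylation 1 (1.45%) rose with the block, CoVIIc, against 2.01% of all records. Of the 69, 56 (81.2%) were higher in both pairs, against 32.6% of all records, with medians of 0.52 and 0.12. Of 65 mitochondrial ribosomal protein genes 1 (1.54%) rose with the block, mRpS17, against the same 2.01%, and the medians were 0.37 and -0.064. The transcripts of these groups are short, with medians of 893, 787 and 794 nt against 2240 nt over all records. Without the length trend the medians over both pairs were 0.32, 0.16 and -0.0077 for the cytoplasmic ribosomal, oxidative phosphorylation and mitochondrial ribosomal genes.

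Smaller groups of housekeeping genes gave 1 or 2 calls each with the block, beside 2.01% higher and 2.91% lower of all records. Tom7, a subunit of the mitochondrial import channel, was the 1 called (8.33%) of 12 Tim and Tom genes. It rose, with 1012 and 977 in wisp libraries, against 399 and 652 in WT libraries. The cysteinyl-tRNA synthetase of mitochondria (CG8257) rose among 29 aminoacyl-tRNA synthetases (3.45%), and Rrp4 and l(1)G0004 rose among 36 nucleolar and ribosome assembly genes (5.56%). Of 43 translation factors 2 (4.65%) fell with the block, eIF4G and eIF-4B, which act at the mRNA cap. For eIF-4B the values were 1803 and 295 in wisp libraries, against 3199 and 492 in WT libraries. The groups overlap, its adjusted p was 0.9997 without a block and 0.0482 with it (limma), and the difference ranged from -2.13 to 0.57 when single libraries were left out. Of 32 proteasome genes 1 (3.1%) fell, Prosalpha1. For Prosalpha1 the values were 1421 and 1397 in wisp libraries, against 2099 and 2988 in WT libraries. It overlaps the end of phr by 17 bases on the opposite strand, and the genes lie tail to tail on 2R. Klp61F, bam, CoVIIc, CG8257 and orb2 also share exon sequence with a neighbouring gene, over up to 15.7% of their exons. For V-ATPase (17 genes), the CCT chaperonin (8), glycolysis (11), RNA polymerases (18), nucleoporins (29), yolk and lipid genes (12), ecdysone-linked regulators (12) and follicle cell genes with a record (5), 0 were called, with 4, 0, 0, 5, 5, 2, 3 and 2 at an unadjusted p under 0.05 (limma, block). Over all 5421 records 1129 had such a p.

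**Figure D3:**
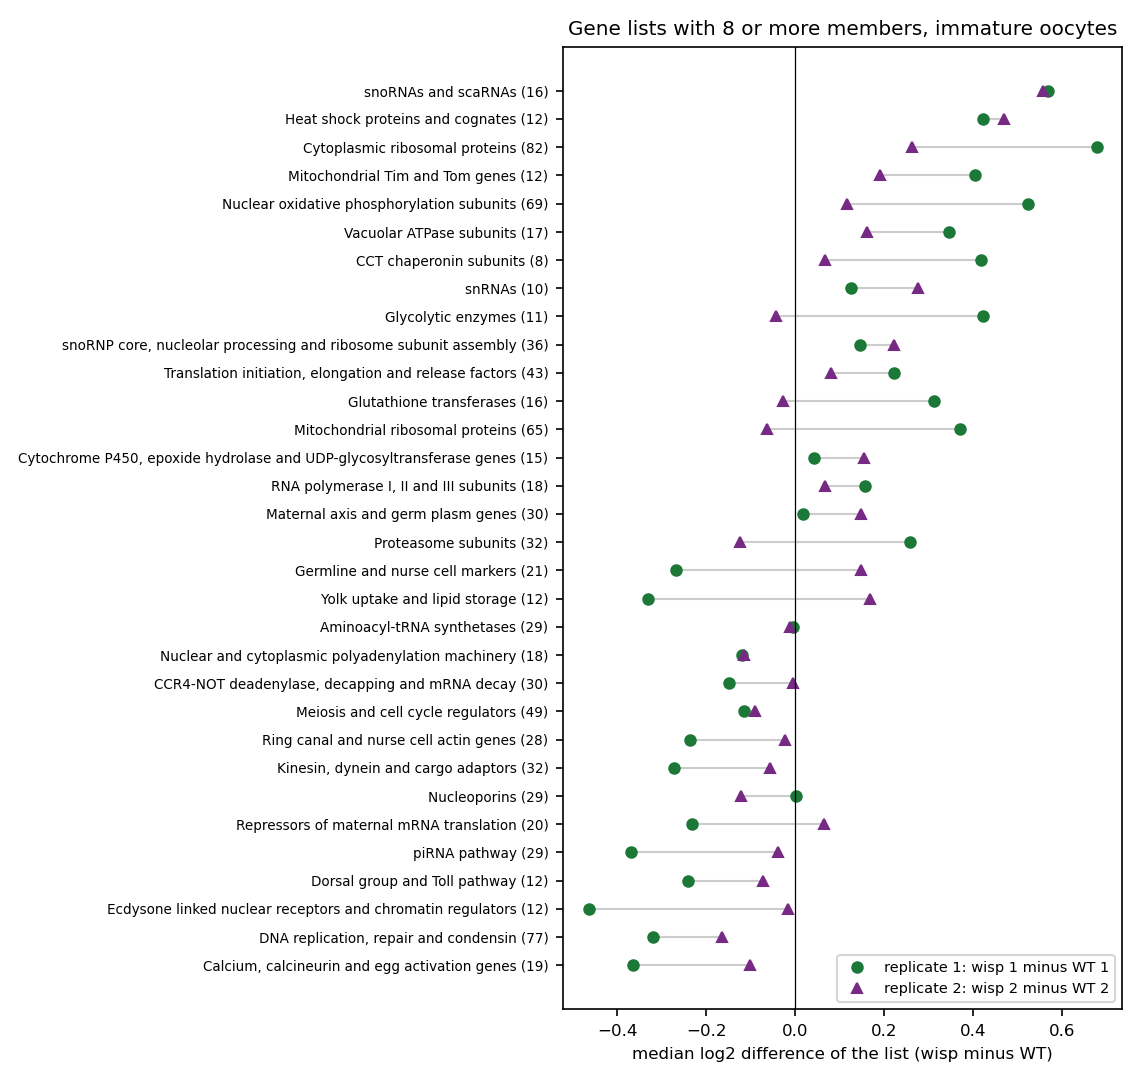
Median log2 difference (wisp minus WT) of each gene list with 8 or more members, circles for replicate 1 and triangles for replicate 2, with the number of members in parentheses. Ribosomal protein genes lie at 0.68 and 0.26 and replication and repair genes at -0.32 and -0.17, and for most lists the circle is further from 0 than the triangle.

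Leading decreases outside these lists included signalling and chromatin genes. The MAP kinase gene rl, the fly ERK, had 1199 and 192 in wisp libraries, against 3072 and 439 in WT libraries. Library 1 was several times library 2 in both genotypes, and the pair differences of -1.36 and -1.19 stand beside an adjusted p of 0.936 without a block and 0.00157 with it (limma). The chromatin gene upSET had 1584 and 2794 in wisp libraries, against 6963 and 4359 in WT libraries, without overlap and with pair differences of -2.14 and -0.64. Its transcript is long, at 12737 nt, and the difference without the length trend was -0.88. Genes known only by annotation included CG7730 and CG11961 among the decreases, at -1.47 and -1.46, and CG4267 and CG5455 among the increases, at 1.44 and 1.35. In all, 34 of the 158 lower and 35 of the 109 higher records have an annotation number only.

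Noncoding RNAs were among the calls. Of 60 noncoding records, 8 (13.3%) rose and 1 (1.67%) fell with the block, against 2.01% and 2.91% of all records. The balance turned when the length trend was removed, with 1 higher and 5 lower (limma with the block). Over all 5399 records of that fit, 149 were called higher and 192 lower. CR32207, which has no gene model in the annotation used here, had 1113 and 1197 in wisp libraries, against 174 and 391 in WT libraries. Of the increases, 6 came from the 16 small nucleolar and Cajal body RNAs, guides for the chemical modification of ribosomal and spliceosomal RNA, whose median pair differences were 0.57 and 0.56. Of these, snoRNA:Or-aca5 had pair differences of 0.66 and 0.88 and snoRNA:Psi18S-1854c 0.69 and 0.96 (both named after their values were seen). Removing the length trend left 0 of the 6 called and called 1 other of the 16 lower (limma). The spliceosomal snRNA:U2:38ABb had 6324 and 12756 in wisp libraries, against 2729 and 5565 in WT libraries; it has near-identical copies. Noncoding records made up 18.5% and 16.7% of the summed values in wisp libraries, against 25.8% and 16.3% in WT libraries, and the part of that share in these values was not tested.

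Transcript length moved with the difference in pair 1 and not in pair 2. In 8 bins with median lengths between 811 and 6481 nt, the median pair 1 difference was 0.36 in the shortest and -0.66 in the longest bin, with a steady decline in between. The pair 2 medians lay between -0.022 and 0.068 with no such order. Called lower records made up 1.04% of the shortest and 7.41% of the longest bin, and called higher records 4.44% and 0.593%. The median transcript was 3683 nt among lower calls and 1424.5 nt among higher calls. A fit with the length trend removed from each library and the replicate block called 341 records (6.32%), of which 218 are shared with the 267. The part of length in any single call was not tested.

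Chromosome 4, the small and largely heterochromatic chromosome, held a group of decreases. Of its 33 genes with a record, 12 (36.4%) were called lower with the block and 0 higher, against 2.91% and 2.01% of all records. Of the 33, 24 were lower in both pairs, against 27.8% of all records. The median pair differences were -0.66 and -0.36, while on the other arms they lay between -0.020 and 0.055. Their replicates differed more than those of any other arm: replicate 1 exceeded replicate 2 by a median of 2.25 in wisp and 2.45 in WT, against -0.10 to 0.049 elsewhere. For eIF4G, the scaffold of the cap-binding complex (4:915297-930715, minus strand), the values were 5349.5 and 885 in wisp libraries, against 10368 and 1482 in WT libraries. PlexA, the receptor for transmembrane semaphorins, named after its values were seen, had 2818 and 449.6, against 6613 and 841. In both genes wisp 1 lay far above WT 2, so the groups overlap, as they did for all 12. With the length trend removed 11 of the 12 remained called and the median was -0.34. At the median the 33 genes differed less in pair 2 than in pair 1.

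**Figure D4:**
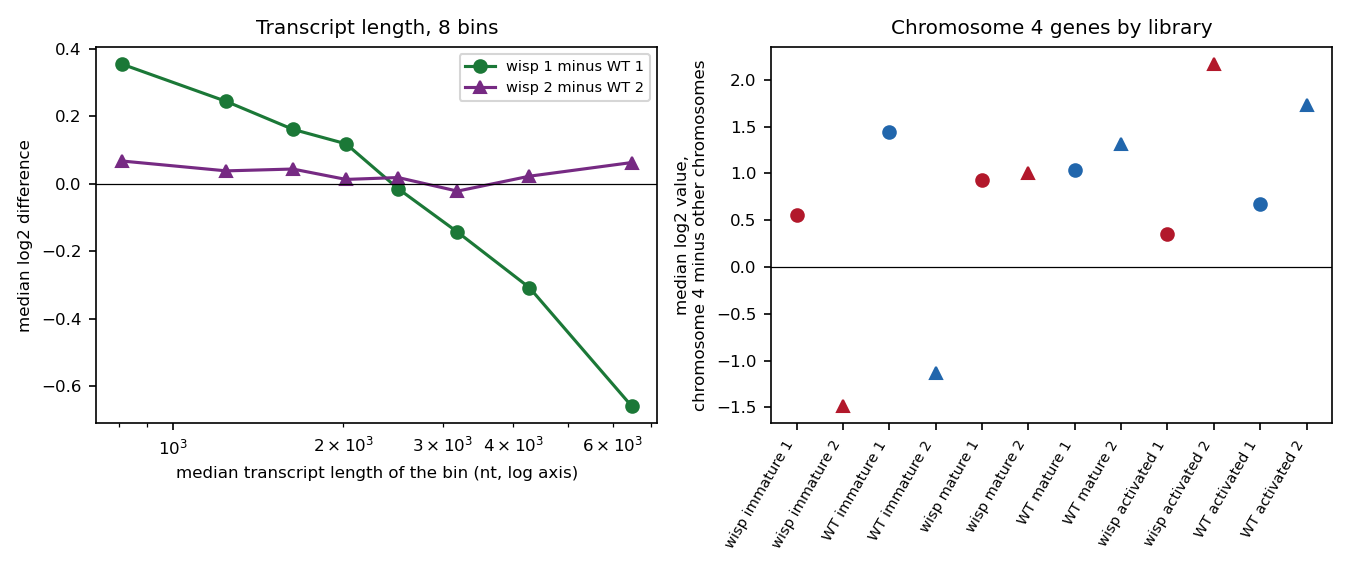
Left, median log2 difference between same-numbered libraries against median transcript length (nt, log axis) in 8 bins, circles for wisp 1 minus WT 1 and triangles for wisp 2 minus WT 2. Right, the median log2 value of chromosome 4 genes minus that of all other chromosomes in each of the 12 libraries, wisp in red and WT in blue, circles for replicate 1 and triangles for replicate 2, with 0.55 and -1.49 in wisp and 1.44 and -1.13 in WT immature oocytes.

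The plot by library shows that replicate 2 of immature oocytes is the only place where chromosome 4 genes lie below the rest. In the 8 libraries of later stages the same measure lay between 0.35 and 2.17. The genotype difference of the 33 genes had a median of -0.14 in mature oocytes and 0.0079 in activated eggs.

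The same records were then read in mature oocytes and activated eggs. The differences at those stages come from other libraries, but all 12 libraries share the fit and its residual spread, so the calls are not independent of them. In a fit of the immature libraries alone with the block, 212 of the 267 remained called. That fit uses the same pair differences, and its spread is a trend shared by all records (1 residual degree of freedom, infinite prior). It is therefore no independent check. Of the 158 lower records, 149 (94.3%) were lower in mutant mature oocytes too, against 53.2% of all records, and 48 (30.4%) were called lower there without a block, against 9.37% of all records. In activated eggs 139 (88.0%) were lower, against 59.2% of all records, and 65 (41.1%) were called lower, against 17.7%. None was called higher at either stage. Of the 109 higher records, 90 (82.6%) were higher in mature oocytes, against 46.8% of all records, and 27 (24.8%) were called higher, against 0.683%. In activated eggs 100 (91.7%) were higher, against 40.8%, and 54 (49.5%) were called, against 7.3%. Called the opposite way were 2 in mature oocytes, l(1)G0004 and Acer, and 1 in activated eggs, l(1)G0004. Acer was named after its values were seen. These pairs of shares are descriptions, and all stages share the same mutant and control stocks.

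**Figure D5:**
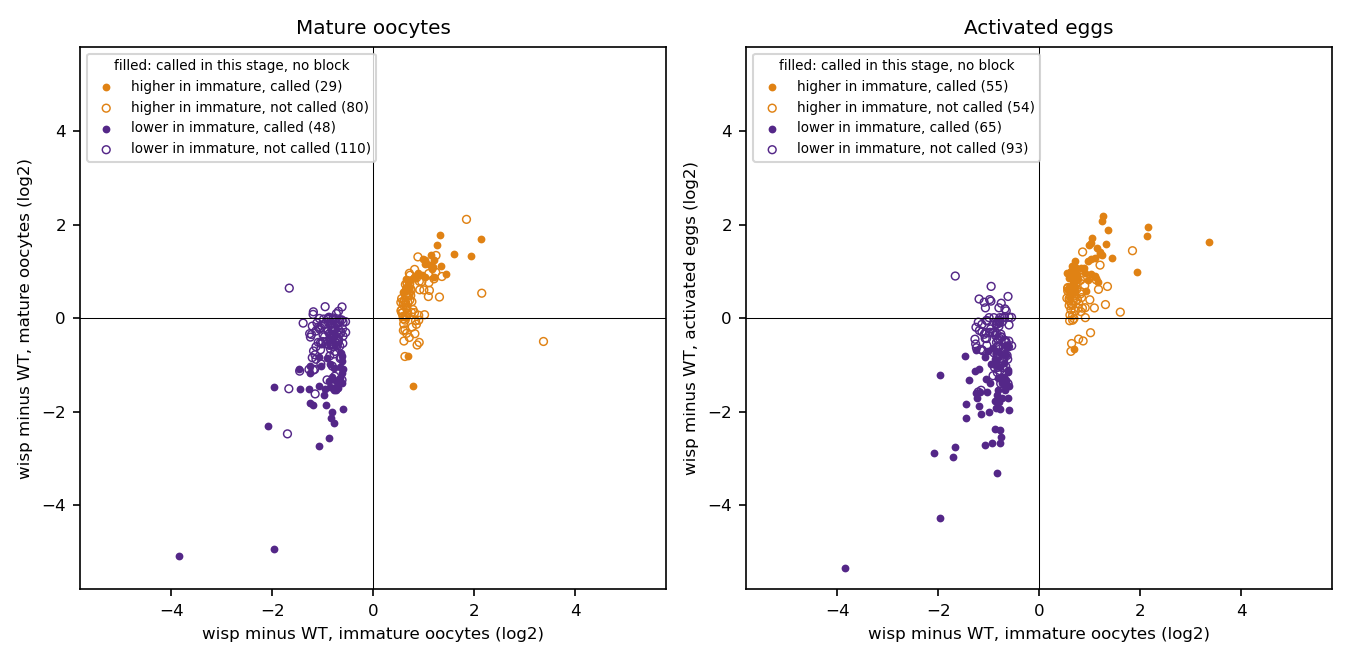
Log2 difference (wisp minus WT) in immature oocytes on the x axis against that in mature oocytes (left) or activated eggs (right) for the 267 records called with the replicate block, orange where higher and purple where lower in immature oocytes, filled where called at the later stage in either direction. Most points lie in the quadrants of equal sign; Cyp6a19 falls to -4.93 in mature oocytes, and Hsp70Aa lies at -0.50 there.

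The 6 genes called without a block illustrate this. Ubi-p5E was lower by 2.32 in mature oocytes and 2.89 in activated eggs, and phr by 1.48 and 1.22, all called. Naglu was higher by 1.33 and 0.99, and CG31683 by 1.25 and 1.41, all called. CG15047 was called lower in mature oocytes (-1.18) and not in activated eggs (-0.20). The gap of Cyp6a19 was larger in mature oocytes (-4.93) and activated eggs (-4.29) than in immature oocytes (-1.97). The later differences were also larger for 2 replication genes: PolE2 had -2.56 in mature oocytes and -2.38 in activated eggs, and RfC38 -2.01 and -1.76. Their differences in immature oocytes were -0.88 and -0.82. The median of all 77 replication and repair genes was -0.20 in immature oocytes, -0.26 in mature oocytes and -0.39 in activated eggs. The difference between stages was tested in the same limma fit without a block and called 56 of all records (1.03%); it was not called for PolE2 (adjusted p 0.0635) or RfC38 (adjusted p 0.0801). The mean value of wisp itself was 254 in mutant mature oocytes, against 8767 in WT mature oocytes, a difference of -5.10.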

How the data were processed

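As deposited, the values are a signal, read counts that the authors had normalised and that are not whole numbers. STAR 2.4.2a, HTSeq, RSEM 1.2.25 and the build dm6 appear in the submitters' processing notes, with no roles, and the normalisation method was not stated there. Per the labels' protocols, TRIzol-extracted total RNA received ERCC spike-ins, was depleted of ribosomal RNA (Ribo-Zero) and went into the TruSeq v2 kit. With 0 ERCC rows in the table, a change common to every transcript could not be measured. At most 23.3% of the low values of a library became whole reads at any step tried (tolerance 0.05, with 10.0% by chance), so sequencing depth is unknown. The values of a library summed to between 11337518 and 13798129 in immature oocytes.

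Of 5422 records, 1 exact duplicate was removed. By accession 5391 records matched RefSeq genes and 5399 matched a gene model with coordinates and length. Group means of the 12 libraries were fitted on log2(value + 1) with limma 3.58.1 in R 4.3.3, with an intensity trend, 6 residual degrees of freedom and Benjamini-Hochberg adjustment. The fit with a replicate block within each stage leaves 3 residual and 16.1 prior degrees of freedom. Alternatives were pseudocounts of 0.5 and 5, a mean of at least 500, other scalings, other blocks, removal of the length trend and leaving out libraries. The code was tested on simulated data.

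The members and the 34 gene lists were chosen with earlier results of these data known. The genes named are wisp, those called without a block, the leading calls of the block fit (12 named and 4 numbered genes in each direction) and up to 3 called members, or else the most abundant, of each list. Puf, Jheh1, arx, piwi, aub, Hsp83, Hsc70-4, Tm1, Mal-A5, Mal-B2, PlexA, the snoRNAs and 5 replication genes were named after their values were seen. So were Acer, shot, cp309, CG13784, Hsp26, Hsp27 and stg.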

Additional observations from a re-analysis of the deposited data

Results flagged for a closer look

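The genotype difference in immature oocytes minus that in mature oocytes was tested in the limma fit without a block. Of the named genes, 4 passed an adjusted p under 0.05. For Cyp6a19 the differences were -1.97 in immature and -4.93 in mature oocytes, and they differed by 2.97 (SE 0.23, adjusted p 0.00416). For CG17322, the UDP-glycosyltransferase gene Ugt36E1, they were -1.07 and -2.74 and differed by 1.67 (SE 0.27, adjusted p 0.0325). In both genes mutant mature oocytes averaged close to the floor of the table, at 236 ± 17.7 and 137 ± 8.07 (SD over 2 libraries). For l(1)G0004, on the nucleolar list, the difference was 0.68 in immature and -0.80 in mature oocytes, a gap of 1.49 (SE 0.26, adjusted p 0.0429). Hsp70Aa had differences of 3.37 and -0.50, which differed by 3.87 (SE 0.69, adjusted p 0.0455). Its value averaged 3321 ± 514 in mutant and 4766 ± 1320.1 in WT mature oocytes (SD over 2 libraries), against 5269.5 ± 1708 in mutant and 571 ± 405 in WT immature oocytes. Over all records 56 passed, and 646 had an unadjusted p under 0.05.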

How the results depend on the processing

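The count of 6 called records was 6 with a pseudocount of 0.5 or 5 and 5 with a mean of at least 500. It was 14 with median-of-ratios scaling, 2 (1 higher and 1 lower) with quantile normalisation, 14 with the length trend removed, 0 in a fit of the immature libraries alone (88 at an unadjusted p under 0.05, limma) and 0 to 5 when any single immature library was left out. Same-numbered libraries deviated from their group means together within immature oocytes (correlation across genes 0.849), and against each other between immature and later stages (-0.938 to -0.31); the series' design names 2 sets and no replicate numbers, so the pairing is a hint from the data. With a replicate block within each stage the count was 267, over all stages 2 and with the length trend removed 341. It was 250 with immature libraries alone and the block, where the spread is a trend shared by all records. Chosen after seeing the data, median-of-ratios scaling with that block gave 194, quantile normalisation 335, pair 2 alone 33 and pair 1 alone 395, of which 189, 252, 31 and 155 were among the 267. The wisp difference passed the threshold with that block (-3.84), with the length trend removed as well (-3.61) and with the 2 scalings (-3.86 and -3.82). With immature libraries alone and the block it was -3.84, and in pair 2 and pair 1 it was -3.86 and -3.83. A fit on pair 1 or pair 2 alone has 1 immature library per genotype. The spread in such a fit comes only from later stages, so the counts for single pairs cannot show whether a call holds. Leaving out single libraries turned the sign of 7 genes whose replicates differ most: rl ranged over -2.68 to 0.13, Smc5 -2.38 to 0.077, eIF4G -2.25 to 0.55, eIF-4B -2.13 to 0.57, cana -1.93 to 0.41, spz -1.86 to 0.40 and SoYb -1.58 to 0.16. A lone library is there assumed to vary like the other groups, and the cause was not tested. No other sign among the 61 named genes changed under the alternatives run. The floor of 100 in every library hides genes that fell below it.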

Other observations

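Replicates of immature oocytes differed in gene groups as well as in single genes, in some groups in the same direction in both genotypes. In other groups the direction was not shared. The median of replicate 1 minus replicate 2 was 0.098 in wisp and -0.31 in WT for 65 mitochondrial ribosomal protein genes. It was 0.044 and -0.37 for 69 oxidative phosphorylation genes, and -0.070 and 0.52 for 12 dorsal group and Toll genes. In the bin of longest transcripts it was -0.29 and 0.53. Replicate 1 exceeded replicate 2 by a median of 1.14 in wisp and 1.59 in WT (log2) for 20 repressors of maternal translation, by 0.48 and 1.17 for 12 ecdysone-linked regulators and by 0.61 and 1.25 for 19 calcium and egg activation genes. For the 5 follicle cell genes with a record, replicate 1 exceeded replicate 2 by a median of 1.89 in wisp and 2.02 in WT. Their median pair differences were -0.58 and -0.19, and the part of follicle cells in these values was not tested. Replicate 1 lay below replicate 2 by small medians for 29 nucleoporins, at -0.31 in wisp and -0.49 in WT. Among heat shock genes, Hsp26 had 28292 and 5543 in wisp libraries, against 15552 and 4367 in WT libraries, and Hsp27 had 8132 and 1608, against 6172 and 1184. The mitotic phosphatase gene stg had 2966 and 627 in wisp libraries, against 5071 and 776 in WT libraries. In each of these the replicates lay further apart than the genotypes. The labels give the same stages, 9 to 10, for both replicates; what set them apart was not tested.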
